A study of Sus scrofa with 36 samples.

Results

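This account compares the infarct zone (IZ) with the border zone (BZ) of the same hearts in Old Late pigs, that is, in 3 Yorkshire-landrace pigs infarcted on day 14 after birth and examined 1 week later. The libraries compared are 6 of the 36 of the series, the IZ and the BZ of Pig_1761, Pig_1762 and Pig_1763. They were chosen by their group labels and paired by the pig number in the library title. Of the 25880 genes in the count table, 14386 passed the count filter and were tested. The infarct was made by tying off branches of the left anterior descending and circumflex arteries for good, and all pigs received the analgesic ketoprofen and the antibiotic enrofloxacin after surgery. The 3 Old Late sham pigs (Pig_1758, Pig_1759 and Pig_1760) had the surgery at the same age without the infarct, and gave 1 library each from the front wall of the left ventricle. The other infarcted groups used below are Young Late (infarct on day 2, tissue after 1 week), Old Early (day 14, after 1 day) and Young Early (day 2, after 1 day), with 3 other pigs each. The count filter and the spread behind each SE and p of the reported fit also used these groups, 24 libraries in all. Each library was made from whole tissue of 1 animal, so that the values average over all cells of the piece.

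When a coronary artery is closed, the heart muscle it feeds dies and is replaced over days by granulation tissue, in which macrophages clear debris and fibroblasts lay down collagen. The border zone is the rim of surviving muscle beside it, where contracting cells lie among inflammatory and scar-forming cells. Contracting heart muscle makes most of its energy in mitochondria by burning fatty acids, and moves it to the myofilaments through creatine kinase. In bulk tissue, fewer cells of a type and less RNA per cell cannot be told apart, and this holds for every value given here.

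A label conflict bears on every paired value. The title of the third BZ library gives Pig_1763, while its individual label gives Pig_1659; the title was used. The IZ and BZ of each titled pig deviated together from their group means (Pearson r across genes of 0.51 for Pig_1761, 0.459 for Pig_1762 and 0.68 for Pig_1763). Unlike titled pigs gave r of -0.471 to -0.0062. Deviations from a group mean cancel within the group, so matches of the other pigs can raise the r of the third. The r of Pig_1763 therefore cannot decide between the title and the individual label. All 9 Old Late libraries are of 1 library preparation batch and held 19.3 to 24.0 M counts. RNA integrity numbers were 7.2, 7.1 and 7.6 in IZ and 6.8, 7.1 and 7.8 in BZ of Pig_1761, Pig_1762 and Pig_1763, in which order all values below are given; sham values follow the order of the sham pigs above.

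Cell type markers set the tissue. The cardiomyocyte markers MYH6, ACTC1, TNNT2, MYBPC3 and RYR2, 5 of the 6 chosen, summed to 16600 to 25500 CPM (counts per M of the scaled library total) in IZ, 29100 to 45300 in BZ and 60300 to 69800 in sham. None of the 5 was at 0, so the infarct zone still held heart muscle RNA. The 5 fibroblast markers summed to 5880 to 6750 CPM in IZ, 2940 to 6450 in BZ and 451 to 524 in sham. Most of the sum in both zones was COL1A1, with 4790 to 5850 CPM in IZ and 2290 to 5590 in BZ. In Pig_1761 DCN and TCF21 were lower in IZ than in BZ (683 against 696 and 33.3 against 43.2 CPM), while LUM and PDGFRA were higher. PDGFRA had 1.71 to 2.79 CPM in BZ beside 2.31 to 3.93 in sham. The 4 macrophage markers summed to 381 to 497 CPM in IZ, 182 to 453 in BZ and 57.3 to 87.7 in sham. IZ and BZ overlapped for fibroblast and macrophage markers because of Pig_1761, whose BZ lay at the top of its group for both. On the first principal component of the 1000 most variable genes, which held 85.7% of the variance among the 9 libraries, that BZ had a score of -42.2 beside -12.2 and -18.0 for the other BZ libraries, and within the IZ scores of -48.8, -51.4 and -39.8. Sham libraries scored 68.6 to 74.6. Endothelial markers (3 of 4 in the table) summed to 184 to 248 CPM in IZ and 186 to 214 in BZ. The skeletal muscle (2 of 5 in the table), atrial (2 of 3), adipocyte (3 of 3) and epicardial (1 of 3) markers each summed to less than 5 CPM in every one of the 9 libraries. The part of cell makeup in the differences described next was not tested.

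The paired test called more genes lower than higher in the infarct zone. The list members that fell were genes of the sarcomere, creatine kinase energy transfer, fuel use, mitochondria and their regulators, excitation and calcium handling, plus IER3 and the lipid droplet gene PLIN4, and 1 list member rose, the protease MMP16. In edgeR's quasi-likelihood test with the animal as a block, 183 genes changed at a Benjamini-Hochberg adjusted p under 0.05, which is 1.27% of the genes tested. Of these, 156 were lower in IZ (1.08%) and 27 higher (0.188%), and all 183 had the same sign in the 3 pigs. The median log2 fold change, IZ minus BZ, was -1.05 over the genes that fell, 1.36 over those that rose and -0.02 over all genes tested. The lowest adjusted p was 0.0214, so that all calls lie close to the threshold, and 2817 genes (19.6%) had an unadjusted p under 0.05, of which 1081 (7.51%) were higher and 1736 (12.1%) lower in IZ. With any of the 3 pigs left out, or with the animal taken from the individual label, 0 genes were called by edgeR. At an unadjusted p under 0.05 there were then 2082, 2241 and 1406 genes without Pig_1761, Pig_1762 and Pig_1763, and 1407 with the individual label. With the individual label, the IZ of Pig_1763 and the BZ labelled Pig_1659 each stand alone in a block and add nothing to the zone effect. That setting is in effect the same as leaving out Pig_1763, and is not a separate check. Every call below is subject to the limit that none was kept when a pig was left out.

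**Figure D1:**
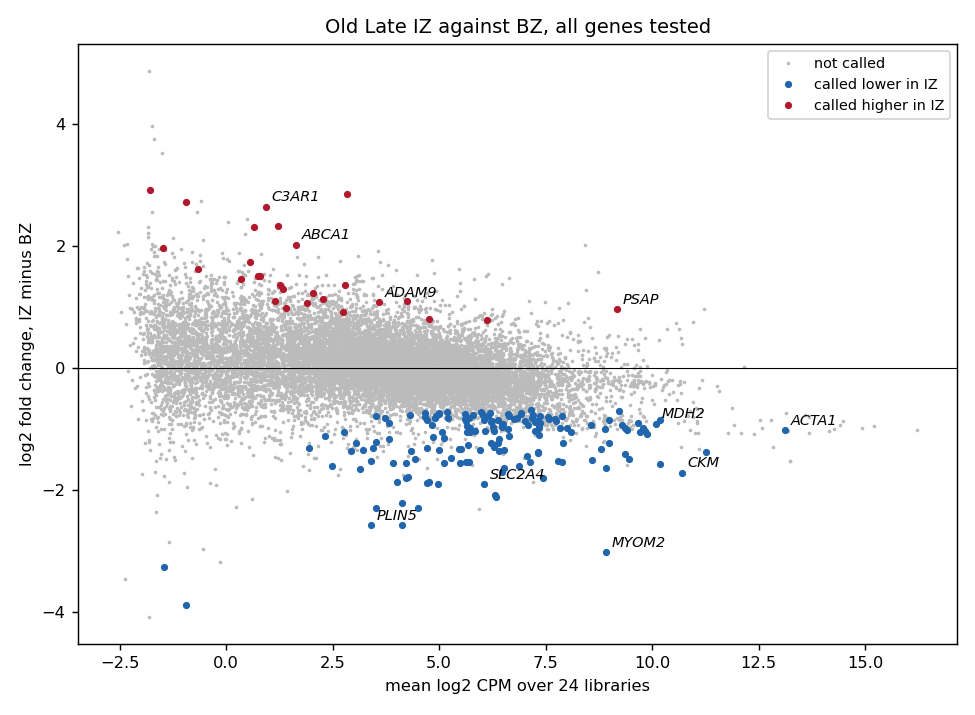
Log2 fold change between IZ and BZ of Old Late pigs (vertical axis) against the mean log2 CPM over the 24 libraries of infarcted pigs (horizontal axis), 1 point per gene tested. The 156 genes called lower in IZ (blue) reach into the most abundant RNAs, such as ACTA1 and CKM, while most of the 27 called higher (red) have few counts, with PSAP an abundant exception.

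The largest fall among the called genes that the naming rule admits was in the sarcomere. MYOM2, a myomesin of the M band that holds thick filaments in register, had 351, 712 and 798 CPM in BZ and 62.1, 27.8 and 209 CPM in IZ. It fell by 3.02 ± 0.63 on the log2 scale (log2 fold change ± SE of the edgeR fit, n = 3 pigs; adjusted p = 0.0436). The zones did not overlap, and sham hearts held 2614, 2555 and 3480 CPM, so that both zones lay under every sham library. ACTA1, the skeletal alpha-actin that the young heart also makes, had 8829, 10015 and 11362 CPM in BZ against 3903, 5160 and 6292 CPM in IZ, a log2 fold change of -1.02 ± 0.22 (edgeR adjusted p = 0.0485). Here BZ lay within the range of sham (8006, 8610 and 11487 CPM) and IZ alone was lower than every sham library.

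CSRP3, the muscle LIM protein of the Z disc, fell by 0.86 ± 0.17 on the log2 scale (edgeR adjusted p = 0.0422), from 804, 1284 and 1027 CPM to 413, 808 and 560.0 CPM. Its IZ and BZ values overlapped narrowly by group, since the IZ of Pig_1762 (808 CPM) passed the BZ of Pig_1761 (804 CPM), while each pig's own IZ was the lower. Of the 26 sarcomere genes tested, 4 fell and none rose.

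The remaining sarcomere genes missed the threshold in the reported fit, yet 25 of the 26 were lower in the IZ of all 3 pigs, beside 25.4% of all genes tested. The list's median log2 fold change was -0.86, with pig medians of -0.87, -0.92 and -0.72. TNNT2, cardiac troponin T, had a log2 fold change of -1.03 ± 0.26 (edgeR adjusted p = 0.0653), with 5287, 8548 and 6189 CPM in BZ and 2474, 5038 and 2796 CPM in IZ. MYH6, a heavy chain of cardiac myosin, had one of -0.88 ± 0.24 (edgeR adjusted p = 0.0792), with 16259, 22263 and 23296 CPM in BZ and 9551, 12370 and 12052 CPM in IZ. The near-identical MYH7 was not found by symbol, so the share of each myosin in that value is uncertain. NRAP, which anchors thin filaments at the ends of growing myofibrils, was outside the rule for named genes and is given after its values were seen. It fell from 395, 464 and 587 CPM to 155, 152 and 307 CPM, a log2 fold change of -1.32 ± 0.19 (edgeR adjusted p = 0.0241).

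Genes of energy transfer through creatine kinase also fell. CKM, the muscle form of the enzyme, had 1111, 2167 and 1794 CPM in BZ and 388, 549 and 600.1 CPM in IZ. Its log2 fold change was -1.72 ± 0.31 (edgeR adjusted p = 0.0379), the zones did not overlap, and sham held 3726 to 4984 CPM. CKMT2, the mitochondrial form, had 279, 470.0 and 420.5 CPM in BZ and 124, 143 and 175 CPM in IZ (log2 fold change -1.41 ± 0.30, edgeR adjusted p = 0.0473). SLC25A4, the carrier that exchanges ADP for ATP across the inner mitochondrial membrane, had 1118, 2208 and 1597 CPM in BZ and 485, 705 and 696 CPM in IZ (log2 fold change -1.38 ± 0.27, edgeR adjusted p = 0.0422). These were 3 of the 6 tested genes of that list, whose median was -1.17.

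**Figure D2:**
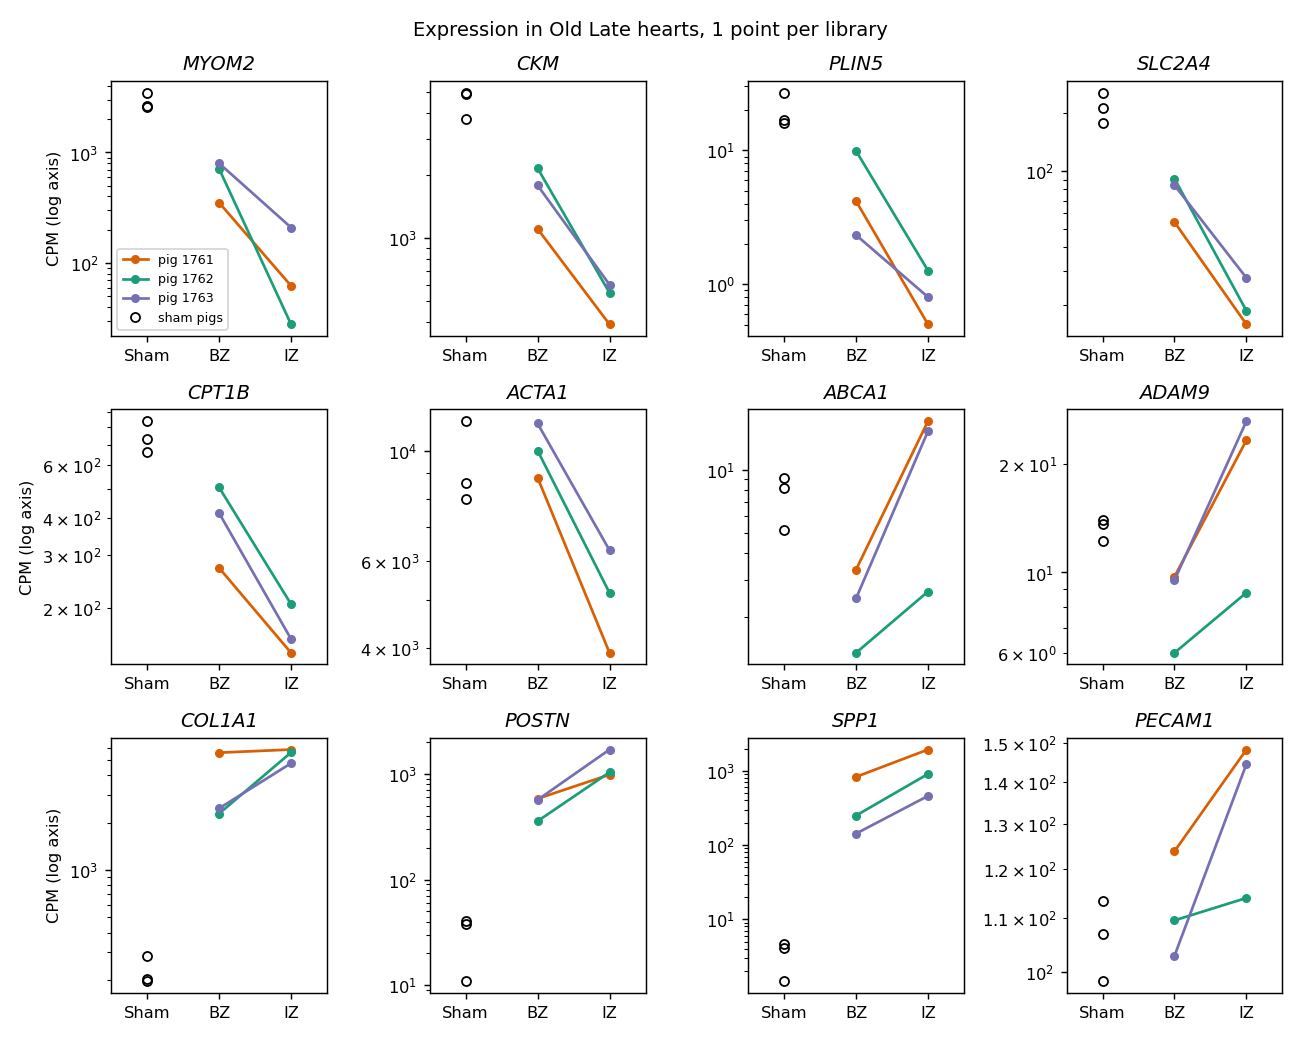
CPM on log axes for 12 genes in the Old Late libraries, with the BZ and IZ of a pig joined by a line and the 3 sham pigs as open circles. MYOM2, CKM, PLIN5, SLC2A4 and CPT1B step down from sham to BZ to IZ, ACTA1 is low in IZ alone, ABCA1 and ADAM9 rise from BZ to IZ with Pig_1762 low in both zones, and COL1A1 is nearly level between the zones of Pig_1761.

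Fuel uptake and fat oxidation came next. PLIN5, which coats lipid droplets and couples them to mitochondria, had 4.19, 9.91 and 2.33 CPM in BZ and 0.502, 1.27 and 0.803 CPM in IZ, with 16.1 to 27.0 CPM in sham. It fell by 2.58 ± 0.43 on the log2 scale (edgeR adjusted p = 0.0358) without overlap of the zones. PLIN4, another droplet coat protein, fell from 16.3, 34.7 and 28.0 CPM to 4.89, 6.82 and 9.54 CPM (log2 fold change -1.90 ± 0.25, edgeR adjusted p = 0.0214). SLC2A4, the insulin-regulated glucose transporter GLUT4, had 54.1, 91.0 and 84.1 CPM in BZ and 15.9, 18.7 and 27.7 CPM in IZ, with sham at 176 to 255 CPM. With a log2 fold change of -1.91 ± 0.26 (edgeR adjusted p = 0.0214), it was the 1 called gene of the 24 in the list for glycolysis and glucose transport, whose median was -0.24.

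CPT1B, the muscle gatekeeper of fatty acid entry into mitochondria, had 272, 505 and 414 CPM in BZ and 142, 206 and 157 CPM in IZ, and sham held 661 to 839.9 CPM. Its log2 fold change was -1.24 ± 0.20 (edgeR adjusted p = 0.0358) and the zones did not overlap. FABP3, the fatty acid binding protein of heart muscle, fell from 385, 621 and 515 CPM to 166, 319 and 275 CPM (log2 fold change -1.05 ± 0.19, edgeR adjusted p = 0.0371). Both enzymes ACADVL (-0.99 ± 0.22, adjusted p = 0.0489) and HADHA (-0.91 ± 0.20, adjusted p = 0.0477) of long-chain fat oxidation also fell by edgeR. Of the 31 genes of fatty acid uptake and oxidation tested, 5 fell, none rose and 25 were lower in the IZ of all 3 pigs, with a median log2 fold change of -0.75. CPT1A, the form of CPT1 found in many non-muscle cells, went the other way at 0.37 ± 0.14, with the sign positive in all 3 pigs, and did not pass the test.

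Some nuclear genes of mitochondrial enzymes fell too. SDHA, a subunit of succinate dehydrogenase, had 387, 619.9 and 482 CPM in BZ and 219, 301 and 264 CPM in IZ (log2 fold change -0.94 ± 0.21, edgeR adjusted p = 0.0489), without overlap. MDH2, the mitochondrial malate dehydrogenase, fell by 0.92 ± 0.20 on the log2 scale (edgeR adjusted p = 0.0485). Of the 24 TCA cycle genes 3 fell, none rose and 23 were lower in the IZ of all 3 pigs. For the nuclear-encoded genes of oxidative phosphorylation, 3 of 39 fell (NDUFA4, UQCRC1 and NDUFA9) and 38 of 39 were lower in all 3 pigs. NDUFA4, a small respiratory chain subunit, went from 509, 846 and 639.6 CPM to 267, 384 and 332 CPM (log2 fold change -1.03 ± 0.23, edgeR adjusted p = 0.0489). The medians of the 2 lists were -0.77 and -0.86. The pig medians were -0.60, -0.95 and -0.67 for the TCA cycle and -0.79, -0.80 and -0.84 for oxidative phosphorylation. DESeq2 called 35 of the 39 oxidative phosphorylation genes and 18 of the 24 TCA cycle genes lower, at list medians of -0.83 and -0.75. Over all 14386 genes tested, DESeq2 called 687 lower.

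All 13 genes of the mitochondrial genome were also lower in the IZ of all 3 pigs, with a median log2 fold change of -0.99. None was called by edgeR, 3 had an unadjusted p under 0.05, and DESeq2 called 2. Together with the other mitochondrially encoded genes in the table they took 9.75%, 10.6% and 11.04% of all counts in IZ and 14.7%, 18.2% and 17.1% in BZ, so the zones did not overlap in that share. Sham libraries gave 22.8% to 24.0%.

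Regulators of these programmes were less uniform. PPARGC1A, the coactivator PGC-1alpha that drives mitochondrial gene expression, fell from 30.0, 53.2 and 67.5 CPM to 18.1, 18.6 and 37.9 CPM (log2 fold change -1.05 ± 0.22, edgeR adjusted p = 0.0435). Its zones overlapped by group, because the IZ of Pig_1763 passed the BZ of Pig_1761, while sham held 170.5 to 182 CPM. ESRRB, an estrogen-related receptor, fell at low levels from 1.60, 4.48 and 4.74 CPM to 0.376, 1.37 and 2.17 CPM (log2 fold change -1.61 ± 0.30, edgeR adjusted p = 0.0416). They were 2 of 14 regulators tested, with a list median of -0.35 and pig medians of -0.06, -0.81 and -0.09, so Pig_1762 stood apart here.

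Among genes of excitation and calcium handling, 4 of 20 fell and none rose. KCNH2, the hERG potassium channel of cardiac repolarization, had 42.8, 63.8 and 66.8 CPM in BZ and 19.4, 28.9 and 26.6 CPM in IZ, with 116 to 149 CPM in sham. Its log2 fold change was -1.23 ± 0.19 (edgeR adjusted p = 0.0336) without overlap. KCNQ1, another repolarizing channel, HRC, a calcium-binding protein of the sarcoplasmic reticulum, and TRDN, triadin of the calcium release complex, fell by 0.89 ± 0.18, 0.94 ± 0.20 and 0.83 ± 0.19. The main calcium pump ATP2A2 was not called: BZ held 407, 833 and 883 CPM and IZ 429, 239 and 635 CPM, and the sign differed in Pig_1761. RYR2, the calcium release channel, was likewise higher in the IZ of Pig_1761 (156 against 129 CPM) and lower in that of Pig_1762 (72.9 against 207 CPM).

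Of the further genes with the largest falls, XDH (xanthine dehydrogenase of purine breakdown) had 12.7, 20.2 and 44.3 CPM in BZ and 2.03, 1.34 and 17.4 CPM in IZ. That is a log2 fold change of -2.57 ± 0.51 (edgeR adjusted p = 0.0422), with overlap by group because Pig_1763 was high in both zones. NMRK2, the muscle kinase that makes NAD from nicotinamide riboside, fell without overlap from 46.3, 94.3 and 70.7 CPM to 14.7, 12.2 and 21.6 CPM (log2 fold change -2.12 ± 0.35, edgeR adjusted p = 0.0358). ATP4B, DDIT4L, ASB11, SMIM5 and ADHFE1 complete the 12 largest falls, with log2 fold changes of -2.30, -2.09, -1.87, -1.87 and -1.79. One immediate early gene of 19 changed: IER3, a regulator of cell survival, fell from 26.4, 41.1 and 25.5 CPM to 14.6, 24.1 and 14.4 CPM (log2 fold change -0.84 ± 0.15, edgeR adjusted p = 0.0371).

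The 27 genes that rose were few and mostly of low abundance. GNB4, a beta subunit of G proteins, had 1.40, 0.476 and 1.44 CPM in BZ and 6.83, 1.79 and 9.60 CPM in IZ (log2 fold change 2.32 ± 0.43, edgeR adjusted p = 0.0402), without overlap. ABCA1, the cholesterol exporter of macrophages and other cells, had 3.35, 1.35 and 2.45 CPM in BZ and 17.0, 2.64 and 15.3 CPM in IZ (2.02 ± 0.41, edgeR adjusted p = 0.0434). The zones of ABCA1 overlapped because Pig_1762 was low in both, and sham, at 5.16 to 9.19 CPM, lay above every BZ library. The rise of ABCA1 is therefore from a BZ level below sham, and this was so for some other rises given below.

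ADAM9, a membrane-anchored metalloprotease, showed the same low level in Pig_1762, with 9.73, 5.99 and 9.52 CPM in BZ, 23.3, 8.79 and 26.3 CPM in IZ and 12.2 to 14.0 CPM in sham (log2 fold change 1.08 ± 0.24, edgeR adjusted p = 0.0485). The IZ of Pig_1762 lay under the BZ of the other pigs. In the reported fit MMP16, a membrane-type matrix metalloprotease, was the 1 called gene of 27 proteases and inhibitors, and the 1 called higher in any of the 35 lists. It had 2.09, 2.06 and 2.59 CPM in BZ, 4.04, 3.97 and 7.13 CPM in IZ and 2.58 to 4.33 CPM in sham (log2 fold change 1.09 ± 0.23, edgeR adjusted p = 0.0448). Its zones did not overlap, and BZ lay near or below the lowest sham value.

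ALOX5, the 5-lipoxygenase with which leukocytes make leukotrienes, rose without overlap from 2.44, 2.30 and 5.19 CPM to 5.77, 6.16 and 9.17 CPM, with sham at 2.16 to 2.96 CPM (log2 fold change 1.13 ± 0.24, edgeR adjusted p = 0.0435). ATP6V1A, a catalytic subunit of the proton pump that acidifies lysosomes, rose from 23.7, 10.5 and 18.4 CPM to 54.4, 19.9 and 43.6 CPM (1.10 ± 0.21, edgeR adjusted p = 0.0422). Its zones overlapped by group through Pig_1762. TTC28, MDFIC, MYO6, ITPR1, TRIM25 and ATG4C complete the 12 largest rises, with log2 fold changes of 1.36, 1.35, 1.29, 1.22, 1.06 and 0.98. For TTC28, MYO6 and ATG4C, as for ADAM9, every BZ library lay under every sham library. Their mean CPM in BZ, IZ and sham were 2.11, 5.81 and 5.61 (TTC28), 1.34, 3.69 and 4.28 (MYO6) and 2.43, 4.83 and 3.47 (ATG4C). BZ and sham overlapped for MDFIC, ITPR1 and TRIM25.

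Another pair was chosen after its values were seen. C3AR1, the receptor for the complement fragment C3a, lay below the abundance that the rule required. It had 1.29, 0.436 and 1.44 CPM in BZ and 9.21, 1.69 and 11.6 CPM in IZ, without overlap (log2 fold change 2.64 ± 0.37, edgeR adjusted p = 0.0214). PSAP, the precursor of the saposins that help lysosomes to break down sphingolipids, was the most abundant gene that rose. It had 951, 404 and 582 CPM in BZ, 1456, 899 and 1311 CPM in IZ and 401 to 411 CPM in sham (log2 fold change 0.95 ± 0.19, edgeR adjusted p = 0.0422). The BZ of Pig_1761 passed the IZ of Pig_1762, so the groups overlapped.

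No gene of the collagen, matricellular, fibroblast or macrophage lists was called in the fit reported here. That depended on the fit: in edgeR on the 6 Old Late libraries alone, with the animal as a block, 9 of 19 collagens, 11 of 34 matricellular, 5 of 18 fibroblast and 11 of 30 macrophage genes were called higher, while limma-voom called 0, 0, 1 and 3. Over all genes tested, the fit of the Old Late libraries alone called 823 of 13855 higher, and limma-voom 226 of 14386. COL1A1, the main chain of type I collagen, had 5590, 2287 and 2470 CPM in BZ and 5851, 5607 and 4788 CPM in IZ, against 196 to 282 CPM in sham. Its log2 fold change of 0.75 ± 0.39 did not pass (edgeR adjusted p = 0.314), and the per-pig differences were 0.07, 1.29 and 0.96. The zones overlapped by the BZ of Pig_1761 alone. COL3A1 (0.97 ± 0.34) and POSTN, the matricellular protein periostin of activated fibroblasts (1.27 ± 0.37), did not pass either, with edgeR adjusted p of 0.146 and 0.0873. POSTN had 583, 357 and 568 CPM in BZ, 985, 1038 and 1703 CPM in IZ and 10.8 to 40.4 CPM in sham, and its zones did not overlap. With the Old Late libraries alone, POSTN had an edgeR adjusted p of 0.00891 and COL1A1 one of 0.0611. That fit has fewer residual degrees of freedom than the 8 of the reported fit, and was not repeated with a pig left out.

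By list, 11 of 20 collagens were higher in the IZ of all 3 pigs, beside 23.9% of all genes tested, and none was lower in all 3. None was called by edgeR, 8 had an unadjusted p under 0.05 and DESeq2 called 3. Over all 14386 genes tested, DESeq2 called 328 higher and 687 lower, the background for this and the DESeq2 list counts below. The median log2 fold change was 0.58, with pig medians of 0.18, 1.14 and 0.81. For 34 matricellular and adhesion proteins the median was 0.54, with pig medians of 0.04, 1.04 and 0.68, and none was called by edgeR (8 at an unadjusted p under 0.05, 4 by DESeq2). FN1, fibronectin, was the highest of them at 2.01 ± 0.63 (edgeR adjusted p = 0.105), with 648, 140.2 and 271 CPM in BZ and 1824, 554 and 1688 CPM in IZ (adjusted p = 0.004 in edgeR with the Old Late libraries alone). The collagen median was 0.94 without Pig_1761, and the matricellular median 0.30 without Pig_1762.

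The 18 fibroblast genes had a median of 0.47, and all 18 had a positive fitted log2 fold change. The pig medians were 0.06, 0.73 and 0.56, 10 of the 18 were higher in the IZ of all 3 pigs, and the list median was 0.76 without Pig_1761 and 0.27 without Pig_1762. None was called by edgeR, 6 had an unadjusted p under 0.05 and DESeq2 called 3. The highest was PDGFRA, the receptor by which fibroblasts sense platelet-derived growth factor, at 1.48 ± 0.35 and just over the threshold (edgeR adjusted p = 0.0523). It had 2.79, 1.71 and 2.45 CPM in BZ and 10.6, 2.25 and 10.2 CPM in IZ, so Pig_1762 was again low in both zones. ACTA2, the smooth muscle actin of myofibroblasts, had 746, 339 and 381 CPM in BZ and 715, 866 and 650.3 CPM in IZ, with a reversed sign in Pig_1761.

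Macrophage genes had a median of 0.66 over 30 genes, but the pig medians were 0.20, 1.49 and 0.54, and the list median was 0.99 without Pig_1761 and 0.31 without Pig_1762. Of the 30, 19 were higher in all 3 pigs, none was called by edgeR, 9 had an unadjusted p under 0.05 and DESeq2 called 2. CD68, a lysosomal protein of macrophages, shows the spread, with 79.4, 20.5 and 32.8 CPM in BZ and 87.6, 76.0 and 61.8 CPM in IZ (0.95 ± 0.50, edgeR adjusted p = 0.313). SPP1, osteopontin, had 830.0, 249.6 and 143 CPM in BZ and 1938, 908 and 459 CPM in IZ, higher in the IZ of each pig but with overlap between groups (1.57 ± 0.79, edgeR adjusted p = 0.294, and 0.004 with the Old Late libraries alone). Neutrophil and acute inflammation genes had a median of 0.85 over 16 genes, with pig medians of 0.39, 0.998 and 0.73 and a median of 0.52 without Pig_1762. Interferon-stimulated genes had 0.54 over 21, and 0.25 without Pig_1761. None of either list was called by edgeR, 2 and 5 had an unadjusted p under 0.05, and DESeq2 called 0 and 2. The order of the pigs differed in the interferon list, with medians of 0.91, 0.49 and 0.24, where Pig_1761 was highest.

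**Figure D3:**
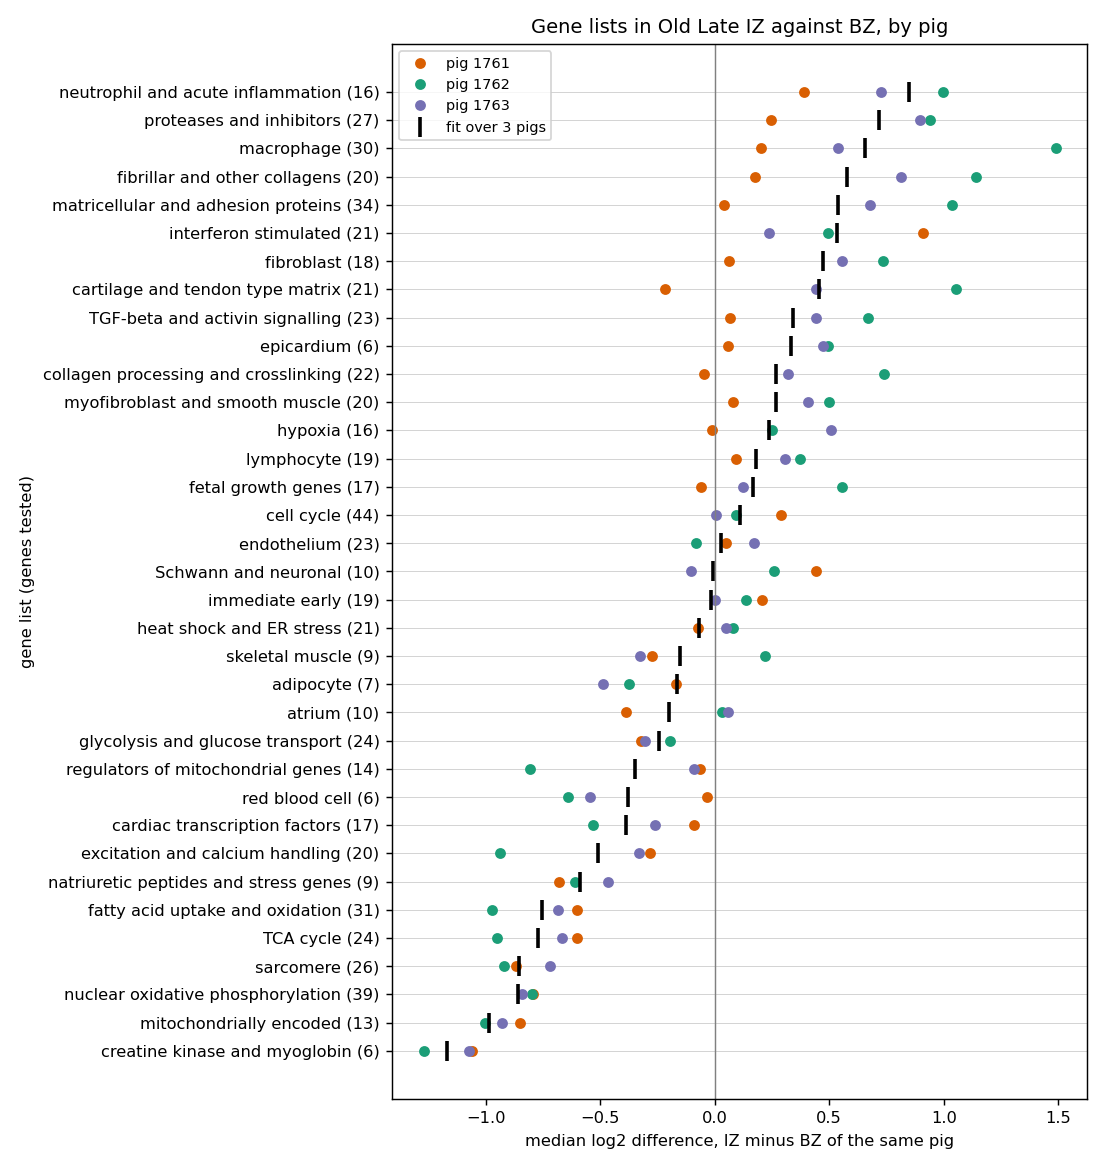
Median log2 difference between IZ and BZ for each gene list and pig (coloured points) and the median of the fitted log2 fold changes (black bars), with the number of genes tested in brackets. The sarcomere and oxidative phosphorylation points of the 3 pigs lie close together under 0, whereas for macrophage genes, collagens and matricellular proteins Pig_1761 lies near 0 and Pig_1762 farthest above it.

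No cell cycle or endothelial gene was called in the reported fit. Over 44 cell cycle genes the median was 0.11 and none was called by edgeR or DESeq2, with 5 at an unadjusted p under 0.05. CDK1, the kinase that drives mitosis, had 19.9, 29.6 and 17.4 CPM in BZ and 23.2, 29.5 and 12.7 CPM in IZ (-0.10 ± 0.25, edgeR adjusted p = 0.858). TOP2A, a topoisomerase of dividing cells, had a log2 fold change of 0.35 ± 0.16 (edgeR adjusted p = 0.246). Over 23 endothelial genes the median was 0.03, none was called by edgeR or DESeq2, and none had an unadjusted p under 0.05. PECAM1, the endothelial adhesion molecule CD31, had 124, 109.6 and 103 CPM in BZ and 148, 114 and 144 CPM in IZ. VEGFA, the growth factor for vessels, had a log2 fold change of -0.91 ± 0.48 that did not pass (edgeR adjusted p = 0.312), with 58.9, 87.5 and 124 CPM in BZ and 40.3, 42.7 and 58.5 CPM in IZ.

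In the reported edgeR fit the remaining lists held no called gene except IER3, given above, and PLIN4, which is also a member of the adipocyte list (7 tested, median -0.16). That depended on the fit. EdgeR on the Old Late libraries alone called 1 higher and 3 lower of 16 cardiac transcription factors. It called 1 and 4 of 9 natriuretic peptides and stress genes, and 5 and 1 of 16 hypoxia genes. Over all genes tested, that fit called 823 higher and 897 lower of 13855. Cardiac transcription factors had a median of -0.39 over 17 genes, with IRX4, a ventricular homeobox factor, lowest at -1.44 ± 0.37 and TBX20, a T-box factor of the developing heart, highest at 1.71 ± 0.46. Natriuretic peptides and stress genes had -0.59 over 9, and NPPB, which encodes the peptide BNP, differed in sign between pigs, with 919.7, 984 and 1225 CPM in BZ and 361, 1149 and 827 CPM in IZ. Medians above 0 were those of cartilage and tendon type matrix (0.45 over 21), TGF-beta and activin signalling (0.34 over 23), epicardium (0.33 over 6), collagen processing (0.27 over 22), myofibroblast and smooth muscle (0.27 over 20), hypoxia (0.24 over 16), lymphocyte (0.18 over 19) and fetal growth genes (0.17 over 17). Medians below 0 were those of red blood cell (-0.38 over 6), atrium (-0.20 over 10), skeletal muscle (-0.15 over 9), heat shock and ER stress (-0.07 over 21), immediate early (-0.02 over 19) and Schwann and neuronal genes (-0.01 over 10).

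Whether the zones differ in the same way in other hearts was read from other pigs. Of the 156 genes lower in Old Late IZ, 152 (97.4%) also had a log2 fold change below 0 in Young Late, where 50.8% of all genes tested did, and 152 (97.4%) in Old Early, beside 52.8%. Their median log2 fold changes were -0.37 in Young Late and -0.41 in Old Early, beside -1.05 in Old Late, on which they were chosen. In Young Early 155 of them (99.4%) were below 0, with a median of -0.95, beside 45.8% of all genes. For the 27 genes higher in Old Late IZ, 25 (92.6%) were above 0 in Young Late and 24 (88.9%) in Young Early, but 8 (29.6%) in Old Early, where their median was -0.13. MYOM2 had log2 fold changes of -1.16 ± 0.62 in Young Late, -1.07 ± 0.59 in Old Early and -1.42 ± 0.58 in Young Early (edgeR adjusted p = 0.120 in the last). SLC2A4 had -0.52 ± 0.26, -0.51 ± 0.26 and -1.20 ± 0.26, and fell in Young Early (edgeR adjusted p = 0.0156).

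In Young Early edgeR called 111 of the 156 genes lower, beside 6.43% of all genes tested. Without Pig_1623 of that condition, whose mitochondrial share went against the other pigs, 46 of the 156 were called lower. In that fit 220 of all 14385 genes were called lower, so calls were fewer over the whole table too. In Young Late and Old Early edgeR called 0 genes of the whole table (0% in each), with 1396 and 850 at an unadjusted p under 0.05, and DESeq2 called 79 and 5.

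The Young Late values rest on unlike pigs. For the 156 genes the median log2 difference was -0.78 in Pig_1734, 0.02 in Pig_1740 and -0.32 in Pig_1741, and 97.4%, 43.6% and 94.2% of them were below 0. The IZ and BZ of Pig_1734 and of Pig_1741 were prepared in different library batches, in opposite order, and those of Pig_1740 in the same one. Mitochondrially encoded genes took 24.97% of counts in IZ and 36.74% in BZ of Pig_1734, 33.69% and 24.09% in Pig_1741, and 30.36% and 29.97% in Pig_1740, so the higher share was in batch 2 for both split pigs. The zones of a Young Late pig did not deviate together from their group means (Pearson r across genes of -0.206, -0.0405 and -0.0513). With batch as a term in Young Late the median of the 156 genes was -0.37 and that of the 27 was 0.51. In the 1 pig whose zones shared a batch the medians were 0.02 and 0.08, so the shift of either set was not seen within a batch there. In the Old Early pigs, all of 1 batch, the medians of the 156 genes were -0.78, -0.19 and -0.17.

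The test of the difference itself called no gene. For Old Late minus Young Late, 0 genes passed an adjusted p under 0.05 in edgeR (0%), 575 had an unadjusted p under 0.05 (4%), and DESeq2 called 7. With library batch as a term in Young Late, 0 passed and 577 had an unadjusted p under 0.05. For Old Late minus Old Early, 0 passed in edgeR (0%), 1084 had an unadjusted p under 0.05 (7.54%), and DESeq2 called 8. With 3 pigs a condition, the standard errors were wide: for ABCA1 the difference from Young Late was 1.43 ± 0.66, and for PLIN4 -1.47 ± 0.34 (edgeR adjusted p = 0.907). The smaller medians of the 156 genes in Young Late and Old Early are thus not shown to differ from that of Old Late gene by gene. Young Early was not tested against Old Late.

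List medians by condition follow, with no test of their difference. The sarcomere median of -0.86 in Old Late stood beside -0.26 in Young Late, -0.36 in Old Early and -0.998 in Young Early. The mitochondrially encoded genes had -0.99 in Old Late and -0.11, 0.14 and 0.24 in Young Late, Old Early and Young Early. The Young Early value rests on Pig_1623, in which all mitochondrially encoded genes took 40.76% of counts in IZ and 10.13% in BZ, while the other pigs had 22.26% and 22.56% in IZ beside 26.29% and 29.94% in BZ. Without Pig_1623 the list median in Young Early was -0.68. In Young Late the pig medians were -0.96, 0.01 and 0.65, in the order Pig_1734, Pig_1740 and Pig_1741. Collagens had 0.58 in Old Late and 0.83 in Young Late, with 0.01 in Old Early and -0.01 in Young Early. In Young Late the collagen pig medians were 1.97, -0.12 and 0.55. Macrophage genes had 0.66 and 1.17 in the Late groups and -0.14 and 0.45 in Old Early and Young Early, and the Young Late pig medians were 2.49, 0.16 and 0.95. Without Pig_1623 the Young Early macrophage median was 0.66, level with Old Late, and the Young Early collagen median was 0.28.

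**Figure D4:**
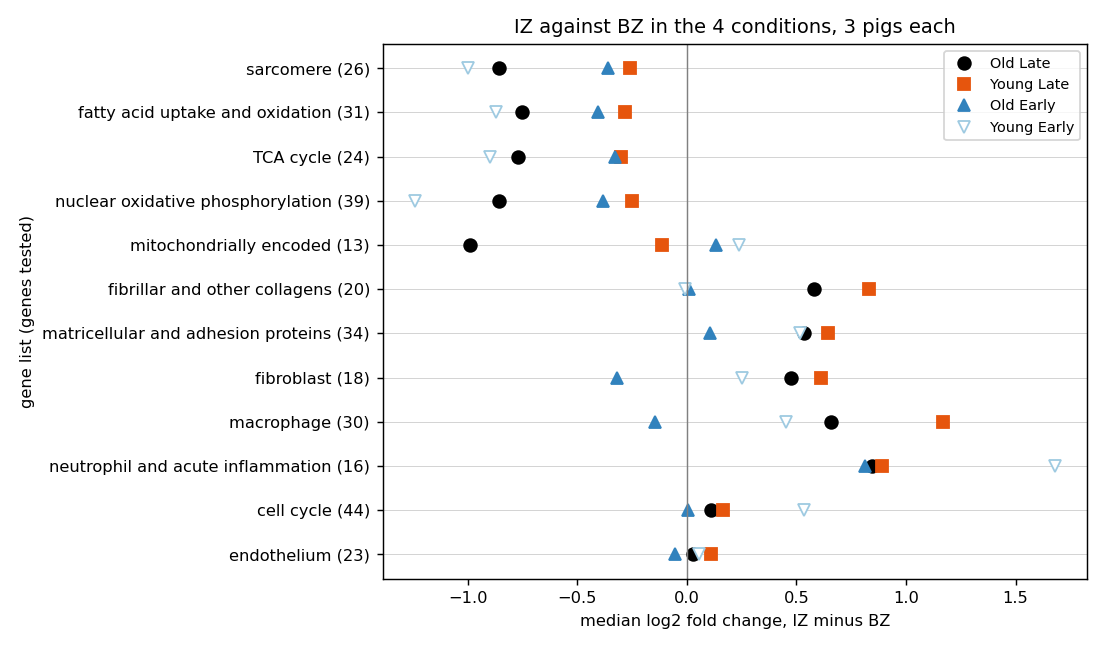
Median log2 fold change between IZ and BZ of 12 gene lists in the 4 conditions, 3 pigs each. Sarcomere and nuclear energy genes lie under 0 in every condition. The mitochondrially encoded genes lie at -0.99 in Old Late and between -0.11 and 0.24 in the others (-0.68 in Young Early without Pig_1623). Collagens and macrophage genes lie highest in the Late groups, but without Pig_1623 the Young Early macrophage median was 0.66, level with Old Late.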

How the data were processed

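RNA from the left ventricle of infarcted and sham-operated pigs was measured by polyA RNA sequencing. Per the labels' protocols, stranded TruSeq libraries were read as 76 bp pairs on a NextSeq. The deposited table gives whole-number counts that were not normalized. The tools listed in the submitters' processing notes are STAR (as 2.2.1), Trimmomatic 0.36, Subread 1.5.1, featureCounts and bcl2fastq 2.19.0.316. The genome build, annotation and strand setting are not given in the sources used here, so overlapping and near-identical genes are uncertain. Symbols came from a reference table for 14857 of 25880 identifiers.

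Genes were filtered with filterByExpr (minimum count 10, minimum total 15), scaled by TMM and fitted with edgeR 4.0.16 (robust quasi-likelihood) in R 4.3.3 over the 24 libraries of infarcted pigs. The model had the animal as a block and 1 zone effect per condition, leaving 8 residual degrees of freedom, and p-values were adjusted over 14386 genes by Benjamini-Hochberg. IZ and BZ come from the same animal, by title. Same-titled Old Late libraries deviated together (r of 0.459 to 0.68), which does not settle the label conflict. The SE is the absolute log2 fold change divided by the square root of the F statistic. CPM use TMM factors over all 36 libraries, and per-pig differences add a prior count of 2. Named genes are the 12 largest called falls and rises with a symbol, mean log2 CPM no lower than 1 and 1 sign in the 3 pigs, up to 3 called members per list at a mean log2 CPM not under 0, and 34 panel genes (27 in the table). The text prints a part of these 66, and some called list members are not reported here. Of 807 distinct members of 35 lists, 700 were in the table and 653 were tested. Members, lists and rules were chosen with earlier results of these data known. The fit was tested on simulated data. Alternatives used DESeq2 1.42.0 and limma 3.58.1. Counting error limits precision for genes of few counts.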

Additional observations from a re-analysis of the deposited data

How the results depend on the processing

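The number of genes called varied between the alternatives. Of the values of the named genes, 988 of 990 kept their sign. The largest falls and rises among them were chosen for 1 sign in the 3 pigs. The panel genes were not, and some, such as ATP2A2, RYR2 and NPPB, had mixed signs between pigs. The setting with a minimum log2 fold change of 1 keeps the fold changes of the reported fit, so it could not change a sign. Of 524 list medians, 510 moved by less than the SD of the pig medians and 26, in 7 lists with medians of at most 0.20 in size, changed sign: atrium (0.15 without Pig_1761), fetal growth (-0.03) and immediate early genes (0.13) without Pig_1762, and adipocyte (0.03), skeletal muscle (0.06), endothelium (-0.03) and Schwann and neuronal genes (0.28) without Pig_1763, among others. Against 183 calls (27 higher, 156 lower), the DESeq2 test gave 1015 (328 and 687), limma-voom with a random animal block 666 (226 and 440), the Old Late libraries alone with the replicate block 1720 (823 and 897), and an RNA integrity covariate 289 (48 and 241). No count filter gave 117, with 11 higher, a minimum log2 fold change of 1 gave 110, with 88 lower, and DESeq2 size factors gave 141. Without the animal block 1 gene was called (0 higher, 1 lower), and with the animal from the individual label 0 (0 and 0). The individual label setting is in effect the same as leaving out Pig_1763. Leaving out each Old Late pig in turn gave 0 to 0 calls in all, 0 to 0 higher and 0 to 0 lower, and none of the 42 called named genes kept its call. DESeq2, limma-voom and the Old Late libraries alone with the block kept 42, 38 and 42 of them. Without Young Early Pig_1623 there were 1433 calls (397 and 1036), which include all 183, and with the Late pigs alone and the replicate block 701 (151 and 550), which include 175; both settings were added after seeing the data, as were the Young Late batch and Pig_1623 values of the other conditions. In the Old Late minus Young Late and Old Late minus Old Early differences, DESeq2 called 7 and 8 genes and the compared groups alone with the block 0 and 4. The share of higher calls was 14.8% in the reported fit, 32.3% with DESeq2, 33.9% with limma-voom, 47.8% with the Old Late libraries alone, 27.7% without Pig_1623 and 21.5% with the Late pigs alone. The cause of these shifts was not tested. With 3 pairs of animals, a zone difference that is small beside the spread of the IZ minus BZ differences between pigs is not detectable.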
